A study of Sus scrofa with 48 samples.

Results

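The genes SLPI, WFDC2, SERPINF1, HTRA1, SERPINB1 and SERPING1, which encode inhibitors of proteases, relatives of such inhibitors and 1 protease, were followed in the whole blood of 48 pigs. They were chosen with results of these data known, most of them chosen by their line difference and SERPINB1 by an interaction of line and diet, so line differences are given as a description with no test. A probe was a member when the gene name in the scanner files was 1 of these symbols and the authors had retained the probe. This rule found 21 probes of 5 genes, and 3 probes of WFDC2, which the array names E4, were found through RefSeq accession NM_213947 and an Ensembl transcript of the same gene. In all, 24 of the 37113 retained probes belonged to the 6 genes, and 10946 genes had a retained probe with a name.

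The pigs were purebred French Large White castrated males, all 132 days old, from 2 lines bred apart for residual feed intake (RFI), the feed an animal eats above or below what its growth and body predict. Each line had 24 pigs. In each line 12 pigs were fed ad libitum a low-fat, low-fiber (LF) diet and 12 a high-fat, high-fiber (HF) diet, in which straw and plant oils replaced part of the cereals. RNA of each pig was hybridized to its own single-colour array. Each of 6 slides held 2 pigs of every group, and the slides were scanned on 3 days. Median signal was 5.91 to 16 times the local background, and no reading was saturated. The erythroid and neutrophil markers of the labelled tissue were well above background on all arrays for each of the 6 and 5 genes measured. Whole blood mixes many cell types, so more cells of a type and more RNA per cell cannot be told apart. A level is the log2 intensity relative to the median of the array, so 0 is the median probe, and levels of different probes are not compared.

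Proteases released by neutrophils and other cells cut matrix and signalling proteins, and inhibitors hold them in check. SLPI and WFDC2 are small secreted proteins built on the whey acidic protein (WAP) fold, and SLPI blocks neutrophil elastase and cathepsin G. In the pig annotation used (Sscrofa11.1) they lie on the same chromosome, with 12 annotated genes between them. The others, apart from HTRA1, are serpins, which trap a serine protease by a large change of shape. SERPINB1 stays inside the cell and inhibits elastase, cathepsin G and proteinase 3 of the neutrophil. SERPING1 is the plasma inhibitor of the complement protease C1 and of the contact system. SERPINF1, or pigment epithelium-derived factor, has the serpin fold but does not inhibit proteases, and is known for its action against the growth of blood vessels. HTRA1 is a secreted serine protease that cuts matrix proteins.

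The probes are 60 bases long, and the sequences below show where probes of a gene agree or part. They come from the scanner files, and capitals mark bases in stretches of at least 20 that a probe shares with another probe of its gene. For SLPI a probe without such overlap is shown, and its 6 fellow probes gave line differences of the same direction. For WFDC2 the first 30 or last 30 bases are shown of its 3 probes, of which A_72_P146751 gave a different answer from the others. For SERPINF1 the probe that stood apart comes first, followed by 1 of the 3 that varied together. The HTRA1, SERPINB1 and SERPING1 probes identify what was measured.
SLPI A_72_P749677: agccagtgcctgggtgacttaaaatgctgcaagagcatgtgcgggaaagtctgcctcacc
WFDC2 A_72_P146751, first bases: TTCTGGCCTCTGCGCTTGCTCCTGAGCTGA
WFDC2 A_72_P054911, last bases: CTTCTTTTACCAACCAATAAAgtgatcact
WFDC2 A_72_P593529, first bases: aatgctgccgcaaggttgcgggaaggtgtc
SERPINF1 A_72_P742047: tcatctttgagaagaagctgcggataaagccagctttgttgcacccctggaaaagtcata
SERPINF1 A_72_P008221: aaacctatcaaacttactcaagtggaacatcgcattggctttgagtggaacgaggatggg
HTRA1 O14458: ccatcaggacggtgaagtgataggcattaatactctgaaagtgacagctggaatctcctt
SERPINB1 A_72_P250832: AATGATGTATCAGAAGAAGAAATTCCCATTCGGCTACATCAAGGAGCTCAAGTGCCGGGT
SERPING1 A_72_P689477: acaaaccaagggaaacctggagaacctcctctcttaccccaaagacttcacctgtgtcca
The SERPINB1 sequence was spotted under a pair of names, A_72_P250832 and A_72_P659654. The first WFDC2 probe was spotted again without a gene name, and it shares 51 of its 60 bases with the second.

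Between the lines, SLPI and WFDC2 were higher in low RFI pigs, and SERPINF1 and HTRA1 were higher in high RFI pigs. Averaged over the diets, SERPINB1 and SERPING1 differed little. With the criterion of the methods (P under 0.01 and a fold change above 1.1), 15 of the 24 member probes were past it for line, where 5.78% of all probes were. Those 15 were the 7 SLPI, the 4 SERPINF1 and the 2 HTRA1 probes and 2 of the 3 WFDC2 probes. Since line differences chose most of these genes, nothing is read from that share.

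**Figure D1:**
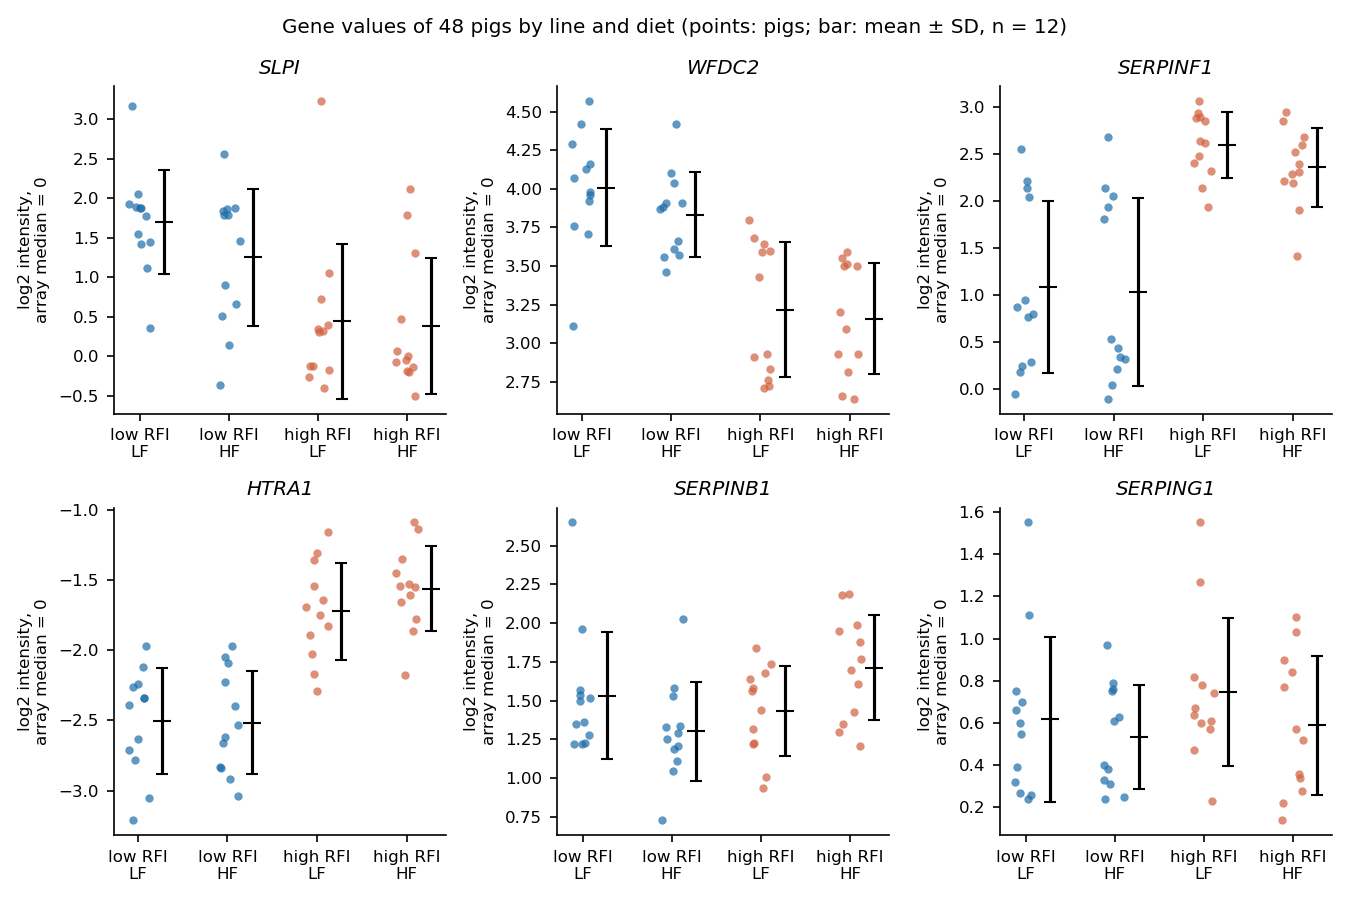
Each point is 1 pig and its height is the mean log2 intensity of the probes of a gene, with the array median at 0. Bars give the mean ± SD of 12 pigs. HTRA1 shows 2 nearly separate lines, while SERPINF1 in low RFI pigs falls into 15 low and 9 high pigs and SERPINB1 crosses over between diets.

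SLPI, the elastase inhibitor of secretions and of neutrophils, had a gene value (the mean of its 7 probes) from -0.37 to 3.16 in low RFI pigs, and the middle value was 1.77. In high RFI pigs it ran from -0.50 to 3.23 around a median of 0.03. The ranges overlapped nearly whole, but 23 of 24 low RFI pigs lay above the median of the high RFI pigs. The group means were 1.70 ± 0.66 (SD, n = 12) in low RFI LF pigs and 1.25 ± 0.87 in low RFI HF pigs. They were 0.44 ± 0.98 in high RFI LF pigs and 0.38 ± 0.86 in high RFI HF pigs. The line difference was 1.07 ± 0.24 (SE) on the log2 scale, a 2.09-fold higher intensity in low RFI pigs. It had the same direction on all 6 slides, where it was 0.51 to 2.19. The 7 probes gave 0.86 to 1.22, and they rose and fell together across pigs (r of 0.96 to 0.99 in low RFI pigs and 0.93 to 1.0 in high RFI pigs, n = 24).

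WFDC2, another WAP protein and a serum marker in medicine, depended on the probe. Probe A_72_P054911 was at 2.40 ± 0.50 and 2.19 ± 0.31 (SD, n = 12) in low RFI pigs fed the LF and HF diet. It was at 1.29 ± 0.67 and 1.08 ± 0.75 in high RFI pigs on these diets. Probe A_72_P593529 behaved alike, with line differences of 1.11 ± 0.16 (SE) for the former and 1.05 ± 0.16 for the latter. The mean of both ran from 0.66 to 2.49 (median 1.71) in the low RFI line and from -0.58 to 1.65 (median 0.59) in the high RFI line. All 24 low RFI pigs were above the median of the high RFI pigs, and 13 were above the highest of them. The mean intensity of these probes was 2.11-fold higher in low RFI pigs.

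The remaining WFDC2 probe, A_72_P146751, showed no such gap. Its 4 group means were 8.45 ± 0.27, 8.35 ± 0.38, 8.28 ± 0.33 and 8.46 ± 0.38 (SD, n = 12) in low RFI LF, low RFI HF, high RFI LF and high RFI HF pigs, a line difference of 0.03 ± 0.10 (SE). The nameless copy of this sequence gave a line difference of 0.07. Across pigs the copy followed it with r = 0.97 in low RFI and 0.91 in high RFI pigs (n = 24). Against A_72_P054911, with which it shares 51 bases, it had r = 0.49 in low RFI pigs and r = -0.60 in high RFI pigs. Averaged over the 3 probes, WFDC2 was 0.73 higher in low RFI pigs, and this gene value mixes both behaviours.

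**Figure D2:**
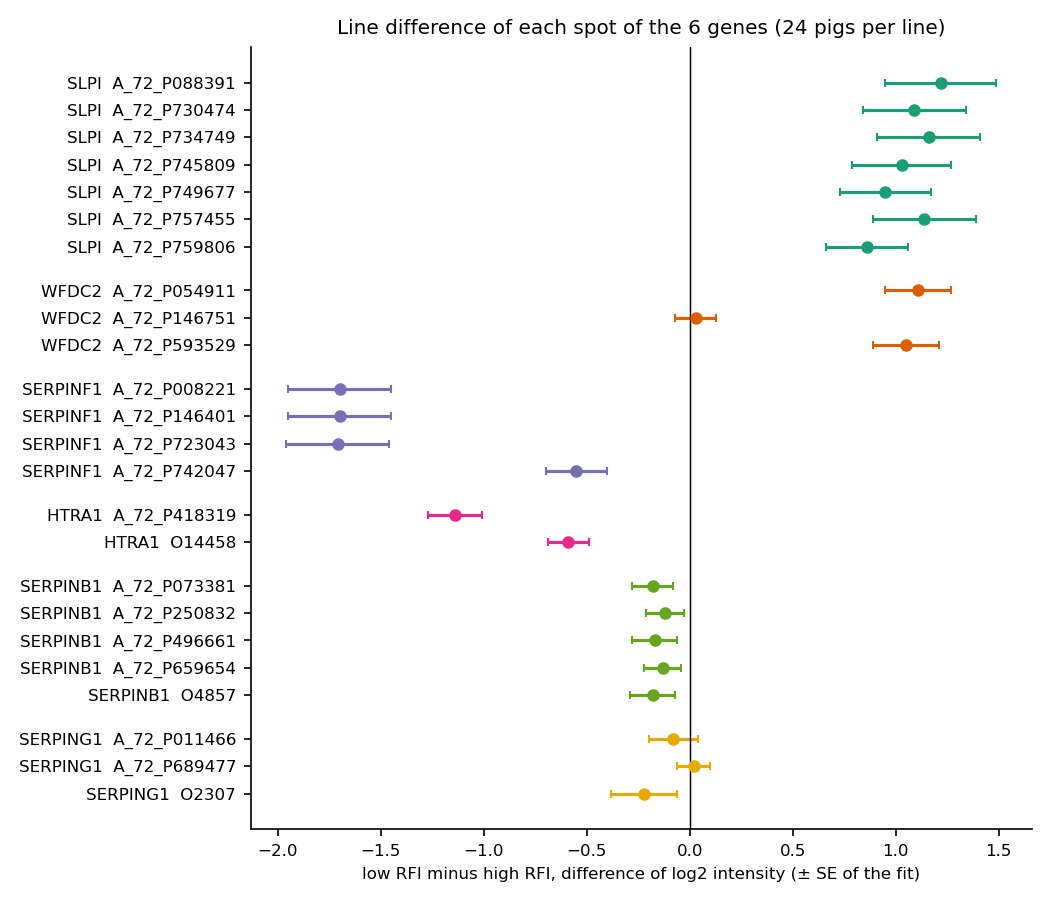
Points are the line difference in log2 intensity, low RFI minus high RFI, of each of the 24 probes, and bars are ± SE of the fit over 48 pigs. The SLPI probes lie together between 0.86 and 1.22, whereas WFDC2 A_72_P146751 at 0.03 and SERPINF1 A_72_P742047 at -0.55 stand apart from the other probes of their genes.

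SERPINF1 had the largest line difference of the 6 gene values as deposited, though not with background subtracted, where it was -1.46 or -1.47 and HTRA1 -1.72. It ran from -0.10 to 2.68 (median 0.78) in the low RFI line and from 1.41 to 3.06 (median 2.50) in the high RFI line. The group means were 1.08 ± 0.91 and 1.03 ± 1.0 (SD, n = 12) in low RFI pigs on the LF and HF diet. In high RFI pigs they were 2.59 ± 0.35 and 2.35 ± 0.42. The line difference was -1.41 ± 0.20 (SE), a 2.67-fold higher intensity in high RFI pigs. The difference within a slide was from -2.37 to -0.00. On the slide at -0.00 all 4 low RFI pigs belonged to the upper set described next, and 2 probes were higher in low RFI pigs there, by 0.07 for A_72_P008221 and 0.02 for A_72_P723043.

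Low RFI pigs were not spread evenly for SERPINF1. There were 15 pigs between -0.10 and 0.95 and 9 pigs between 1.81 and 2.68, and the empty stretch of 0.86 was 30.8% of the range. All 15 lower pigs were below the lowest high RFI pig, and the 9 upper pigs lay within the range of the high RFI line. The lower pigs were 7 fed HF and 8 fed LF, and the upper pigs 5 fed HF and 4 fed LF. The split followed the replicate numbers of the labels, whose meaning the labels do not give. For 11 of 12 numbers the LF and the HF pig lay on the same side, both upper for 4 numbers and both lower for 7. Whether pigs of a number are related or share another factor was not tested, and these 24 pigs may not be independent for this gene. The largest such gap in any other member gene and line, with at least 4 pigs on each side, was 19.6% of the range, for WFDC2 in high RFI pigs.

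Probes A_72_P723043, A_72_P008221 and A_72_P146401 carried this split, with line differences of -1.71, -1.70 and -1.70 and r of 0.96 to 0.99 with one another in each line (n = 24). On their mean, the 15 lower pigs were between -0.01 and 1.49 and the 9 upper pigs between 2.16 and 3.53. Probe A_72_P742047 showed a smaller line difference of -0.55 ± 0.15 (SE). With the other probes it had r of 0.43 to 0.46 in low RFI pigs and -0.15 to -0.08 in high RFI pigs. The low RFI values pool the 15 lower and 9 upper pigs, so they do not show that the probes varied together within a set. On A_72_P742047 the 15 pigs were between -1.46 and 0.39 and the 9 pigs between 0.14 and 1.39, so the sets overlapped.

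**Figure D3:**
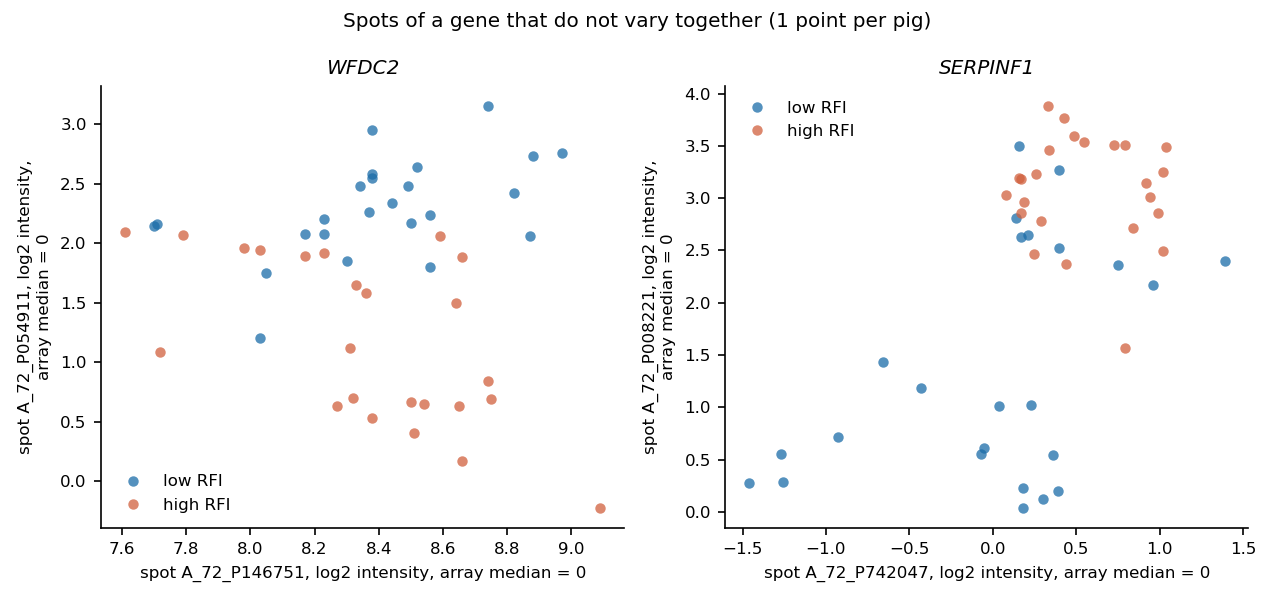
Both panels set a probe against another probe of the same gene, 1 point per pig, in log2 intensity with the array median at 0. For WFDC2 the lines overlap on both axes, with 17 of 24 low RFI pigs above the highest high RFI pig on the vertical axis and 0 on the horizontal axis. For SERPINF1 the vertical axis leaves an empty band between the 15 lower and 9 upper low RFI pigs.

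HTRA1, the matrix-cutting protease, was dim, and its 2 probes were well above background on 47 and 33 of 48 arrays. The gene value ran from -3.21 to -1.97 (median -2.47) in the low RFI line and from -2.29 to -1.09 (median -1.63) in the high RFI line. All 24 low RFI pigs were below the median of the high RFI pigs, and 16 were below the lowest of them. The group means were -2.50 ± 0.38 and -2.51 ± 0.37 (SD, n = 12) in low RFI pigs on LF and HF, and -1.72 ± 0.35 and -1.56 ± 0.30 in high RFI pigs. The line difference was -0.87 ± 0.10 (SE), a 1.82-fold higher intensity in high RFI pigs. A_72_P418319 gave -1.14 ± 0.13 and O14458 gave -0.59 ± 0.10. These values contain the local background, and with it subtracted the difference was -1.72. Another retained probe of the same cDNA as A_72_P418319, without a gene name on the array, gave -1.42 and followed it with r = 0.97 in low RFI and 0.93 in high RFI pigs (n = 24). With O14458 agreement was weaker. O14458 had r = 0.64 in low RFI and 0.33 in high RFI pigs with A_72_P418319, and 0.65 and 0.41 with the probe without a name.

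SERPINB1, the neutrophil elastase inhibitor of the cell interior, was at 1.53 ± 0.41 in low RFI LF pigs and 1.30 ± 0.32 (SD, n = 12) in low RFI HF pigs. It was at 1.43 ± 0.29 in high RFI LF pigs and 1.71 ± 0.34 in high RFI HF pigs. HF minus LF was -0.23 in the low RFI line and 0.28 in the high RFI line. The interaction, the diet difference in low RFI minus that in high RFI pigs, was -0.51 ± 0.19 (SE). The paper lists SERPINB1 for this interaction, so it is a description with no test. A mean of 5 neutrophil markers (CXCR2, S100A8, S100A9, S100A12 and LTF) had the same sign of diet difference in the high RFI line, at 3.75 ± 0.53 in LF and 4.51 ± 0.88 (SD, n = 12) in HF pigs. In the low RFI line it was at 3.75 ± 0.73 and 3.85 ± 0.94, a diet difference of 0.09 beside -0.23 for SERPINB1. Its diet difference in low RFI minus that in high RFI pigs was -0.66, and its part in the SERPINB1 values was not tested. All 5 probes had the same direction, with HF minus LF of -0.27 to -0.20 in low RFI and 0.24 to 0.36 in high RFI pigs. Over both diets the line difference was -0.16 ± 0.10 (SE), at -0.41 within HF pigs and 0.10 within LF pigs. For the gene value, 21 of 24 low RFI pigs were below the median of the high RFI pigs. Of the 5 probes, 2 had P under 0.01 for the interaction, where 0.264% of all probes did. They are A_72_P250832 and A_72_P659654, which are 1 sequence, and nothing is read from that share.

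**Figure D4:**
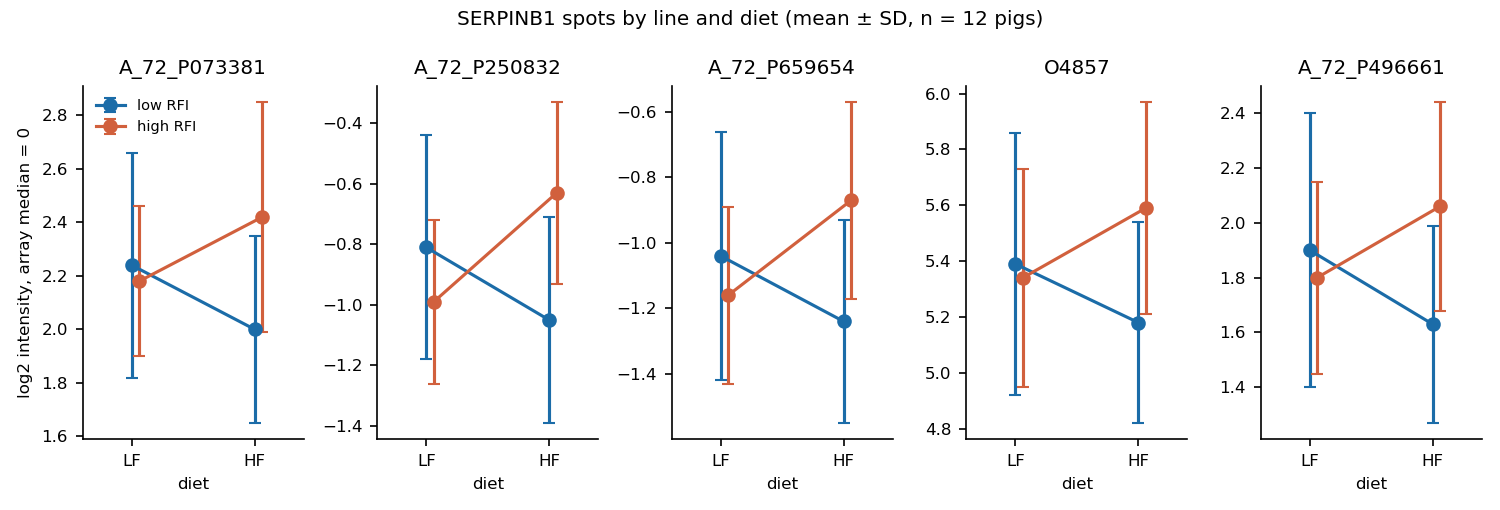
Each panel is 1 SERPINB1 probe, with mean log2 intensity ± SD of 12 pigs per group, the array median at 0, and diet on the horizontal axis. In all 5 panels the low RFI means go down from LF to HF and the high RFI means go up.

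SERPING1, the inhibitor of C1, was at 0.62 ± 0.39 and 0.53 ± 0.25 (SD, n = 12) in low RFI pigs on LF and HF. It was at 0.75 ± 0.35 and 0.59 ± 0.33 in high RFI pigs. Low RFI pigs ran from 0.24 to 1.55 and high RFI pigs from 0.14 to 1.55, and the line difference of -0.09 ± 0.09 (SE) was no larger than its error. The probes gave -0.22, -0.08 and 0.02, and their correlation across pigs was 0.09 to 0.81 in low RFI and -0.03 to 0.84 in high RFI pigs (n = 24).

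The diet difference averaged over the lines was tested for all 6 genes. For SERPINB1 it averages the opposite directions given above, so it says nothing of diet within a line. None of the 24 member probes was past the criterion of the methods, where 0.245% of all probes were. HF minus LF was between -0.29 and 0.10, with unadjusted P of 0.16 to 0.98 and 0 probes under 0.05 in limma and in the analysis of variance. All adjusted P-values in limma were 1.0 after rounding. HF means were lower than LF means for 17 of 24 probes, compared with 45.5% of all 37113 probes. The 17 include the 7 SLPI probes, which rose and fell together, so nothing is read from that share. SLPI had the most negative diet difference of the gene values, -0.25 ± 0.24 (SE), and 14 of 24 HF pigs were below the median of the LF pigs. Outside SERPINB1, the interaction was between -0.53 and 0.34 for 19 probes. The lowest unadjusted P was 0.17 and the lowest adjusted P in limma was 0.90, with 0 probes under an unadjusted 0.05 in limma and in the analysis of variance.

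Within a line, SLPI and SERPINB1, the elastase inhibitors outside and inside the cell, varied together in low RFI pigs. Pearson's r was 0.64 and Spearman's rho 0.68 (n = 24, permutation P = 0.0010 and 0.00035, adjusted P = 0.036 and 0.012 over 35 correlations). Leaving out the 2 pigs farthest from the median of SLPI gave r = 0.69. In high RFI pigs r was 0.21 (n = 24, permutation P = 0.33). The difference of 0.43 between the lines had a permutation P of 0.21, so a difference between lines was not shown. The call in low RFI pigs was lost under 7 of 16 alternatives. With means taken out, permutation gave r = 0.60 (adjusted P = 0.089) for diet, 0.55 (0.20) for slide and 0.40 (0.69) for replicate number. Within scan days it was 0.63 (adjusted P = 0.20) and 0.59 (0.81), with fewer pigs. It was 0.62 with background subtracted and median centring (adjusted P = 0.05) and with normexp and quantile normalization (0.054), while with background subtracted and 75th percentile centring it was 0.63 and the call was kept (0.049).

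No other pair passed the adjustment on the gene values. SLPI and WFDC2 had r = 0.28 (permutation P = 0.19) in low RFI pigs and r = 0.50 (permutation P = 0.0096, adjusted P = 0.17) in high RFI pigs. With WFDC2 taken as the mean of its 2 agreeing probes, a choice made after seeing the values, r in high RFI pigs was 0.64, with an adjusted P of 0.0066 by permutation. With A_72_P146751 in place of all 3 it was -0.79, given as a description. With each gene taken by its brightest probe, r of SLPI and WFDC2 in high RFI pigs was -0.68. Its adjusted P was 0.0098 by permutation. The sign thus depended on the WFDC2 probes used, and no direction is read from these values. For SERPINF1 in low RFI pigs no r over both sets is given. With SLPI it had r = 0.26 in the 15 lower pigs and r = 0.68 in the 9 upper pigs, with permutation P of 0.34 and 0.045 and adjusted P of 0.63 and 0.35. In the 9 upper pigs SERPINF1 and HTRA1 had r = -0.70 (permutation P = 0.036, adjusted P = 0.35), and r was -0.17 without 2 pigs. These SERPINF1 values include A_72_P742047. On the mean of the 3 probes that varied together, r with SLPI was -0.03 in the lower and 0.58 in the upper pigs. With HTRA1 that mean had r = -0.55 in the upper pigs. Of the 35 correlations, 25 were positive, and they ran from -0.70 to 0.68.

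The members were also set against lists of blood cell markers, as the mean of the measured genes of a list. SERPINB1 followed the 5 neutrophil genes CXCR2, S100A8, S100A9, S100A12 and LTF closely, with r = 0.80 in low RFI and 0.79 in high RFI pigs (n = 24, permutation P = 1e-05 in each, the smallest 100000 permutations can give). Both had an adjusted P of 0.00035 by permutation, and r was 0.69 and 0.74 without 2 pigs. In all, 8 of the 104 correlations with lists were past an adjusted P of 0.05. None was recomputed with means of replicate numbers taken out, a step that lowered r of SLPI and SERPINB1 in low RFI pigs to 0.40. SERPINB1 also followed the monocyte list, with r = 0.72 and 0.59 and adjusted P of 0.0026 and 0.023 by permutation, but in high RFI pigs Spearman's rho was 0.51 with an adjusted P of 0.11. SLPI had r = 0.62 with the neutrophil list in low RFI pigs (adjusted P = 0.019 by permutation) and 0.41 in high RFI pigs (adjusted P = 0.23). The difference between the lines in this r had a permutation P of 0.43 (adjusted P = 0.86 over 40 differences). With the NK and cytotoxic list in high RFI pigs SLPI had r = 0.66 (adjusted P = 0.019 by permutation), but Spearman's rho was 0.30 and r without 2 pigs 0.31, so this relation rests on those pigs.

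The gene value of WFDC2 followed the erythroid list in 1 line and not in the other, but the probes differed in this. In low RFI pigs r was 0.80 (n = 24, permutation P = 1e-05, adjusted P = 0.00035), and in high RFI pigs it was -0.21 (permutation P = 0.33). The difference of 1.01 had a permutation P of 0.00055, adjusted to 0.022 over 40 such differences. This difference was not recomputed with means of replicate numbers taken out. Without 2 pigs r was 0.72 in low RFI pigs, and within scan days it was 0.73 and 0.93 in low RFI pigs and -0.71 and -0.43 in high RFI pigs. The 2 agreeing probes had r = 0.72 and -0.36 in the low and high RFI line, whereas A_72_P146751 had r = 0.70 in both. With the T cell list, WFDC2 had r = -0.63 in low RFI pigs (adjusted P = 0.019 by permutation) and 0.27 in high RFI pigs, and the adjusted P of that difference was 0.057. The probes differed here too. The 2 agreeing probes had r = -0.60 and 0.43 with the T cell list in the low and high RFI line, and A_72_P146751 had r = -0.48 and -0.74. SLPI also had opposite signs in the low and high RFI line. It had r = -0.38 and 0.57 with the T cell list, and 0.44 and -0.45 with the erythroid list. The adjusted P of these line differences was 0.057 and 0.061 by permutation.

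**Figure D5:**
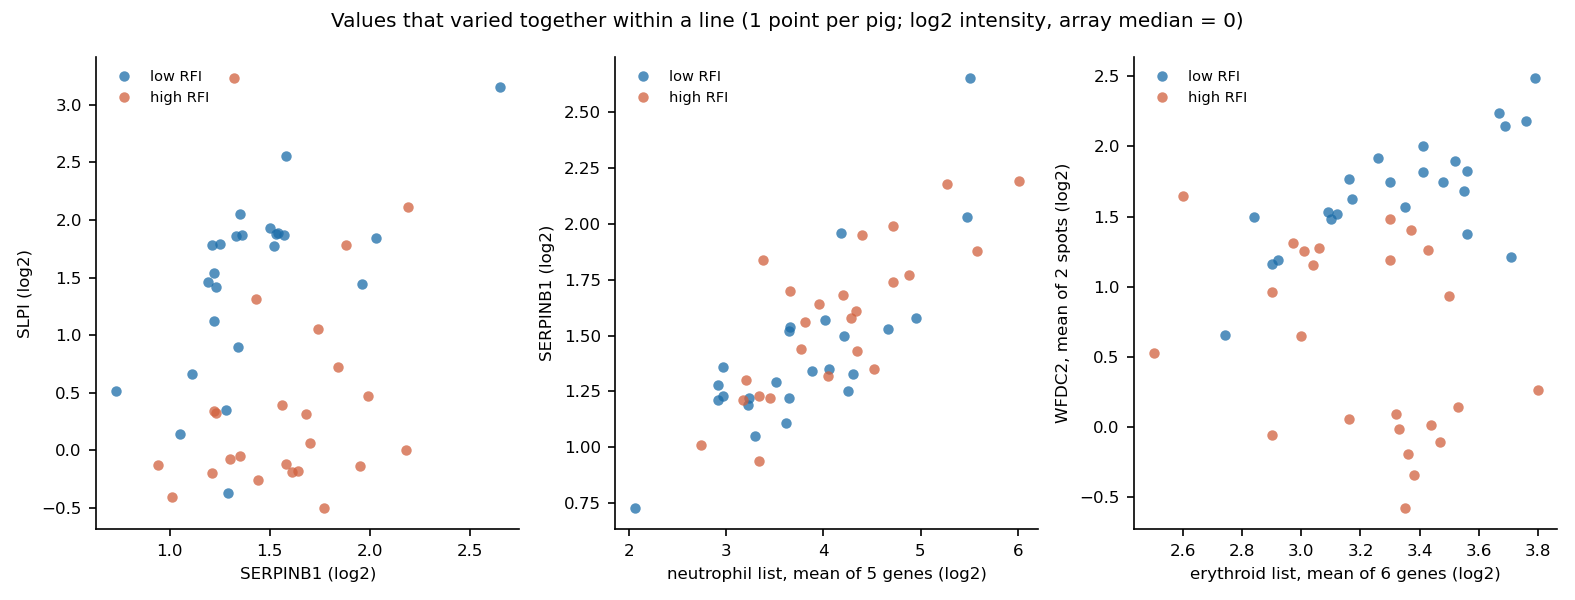
Each point is 1 pig, and axes are log2 intensity with the array median at 0. SERPINB1 rises with the neutrophil list in both lines (r = 0.80 and 0.79), SLPI rises with SERPINB1 in low RFI pigs (r = 0.64), and the mean of 2 WFDC2 probes has r = 0.72 with the erythroid list in low RFI pigs and r = -0.36 in high RFI pigs.

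Of 46 marker genes measured, 6 passed limma's test for line, where 3.29% of all genes did. At an unadjusted P under 0.05 for line 13.1% of all genes passed. The B cell list was at 1.90 ± 0.31 in the low and 2.14 ± 0.16 (SD, n = 24) in the high RFI line, from 1.17 to 2.63 and from 1.87 to 2.52. MS4A1 of this list was 0.36 lower in low RFI pigs (limma adjusted P = 0.0012). The monocyte list was at -0.03 ± 0.31 and 0.21 ± 0.41, from -0.69 to 0.61 and from -0.42 to 1.38, and 3 of its 4 genes had lower means in low RFI pigs. CD14 passed limma's test (-0.47, adjusted P = 0.037), and CLEC7A was at -0.45 (adjusted P = 0.077). The T cell list was at 2.81 ± 0.18 and 2.68 ± 0.23, with all 5 means higher in low RFI pigs and none past the adjusted threshold, 2 being under an unadjusted 0.05. The adipocyte list was at -1.92 ± 0.27 and -1.93 ± 0.28, and 1 of 4 genes passed limma's test (PLIN1, -0.19, adjusted P = 0.023), 2 having lower means. The erythroid list was at 3.34 ± 0.31 in the low and 3.21 ± 0.30 (SD, n = 24) in the high RFI line, from 2.74 to 3.79 and from 2.50 to 3.8. Of its 6 genes, 1 passed the limma test (SLC4A1, the anion exchanger of the red cell, 0.26 higher in low RFI pigs, adjusted P = 0.040) and all 6 had higher means in low RFI pigs. The neutrophil list was at 3.8 ± 0.83 in the low and 4.13 ± 0.81 in the high RFI line, from 2.06 to 5.51 and from 2.74 to 6.01, and 4 of its 5 genes had lower means in low RFI pigs. Of these, CXCR2 passed limma's test (-0.42, adjusted P = 0.039), and S100A8, S100A9 and S100A12, which did not, were at -0.41, -0.46 and -0.44. The epithelial list, a source of SLPI and WFDC2 in other tissues, was at -1.37 ± 0.39 and -1.40 ± 0.31, from -2.01 to -0.79 and from -1.87 to -0.86, with 0 of 3 measured genes past the test and 0 of 3 under an unadjusted P of 0.05. For the fibroblast list, 0 of 5 genes passed limma's test and 1 had an unadjusted P under 0.05 (COL1A2, 0.23 higher in low RFI pigs). Its values ran from -1.37 to -0.04 and from -1.41 to -0.11 in the low and high RFI line. The part of these cells in the member differences was not tested.

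Among other proteases and inhibitors, 56 of 90 listed genes were measured, and 4 differed between lines at an adjusted P under 0.05 in limma, all lower in low RFI pigs. Of all 10946 genes, 1.65% were higher and 1.64% lower in low RFI pigs at that threshold. GZMH, a granzyme of cytotoxic lymphocytes, was at 2.79 ± 0.70 in the low and 3.51 ± 0.56 (SD, n = 24) in the high RFI line, a 1.65-fold higher intensity in the latter (limma adjusted P = 0.011). In 21 of 24 low RFI pigs it was below the median of the other line. Other granzymes did not pass the test. GZMK and GZMB had means 0.37 and 0.13 higher in low RFI pigs, and GZMA had a line difference of -0.32. HTRA4, a relative of HTRA1, was at 1.44 ± 0.37 and 1.81 ± 0.15 (adjusted P = 0.0030, below the median in 21 of 24). F12, the factor that starts the contact system, was at 0.82 ± 0.47 and 1.20 ± 0.29 (adjusted P = 0.042, 17 of 24), and its adjusted P in the analysis of variance was 0.053. CTSC, or cathepsin C, which activates granzymes and neutrophil elastase, was at 4.42 ± 0.19 and 4.69 ± 0.19 (adjusted P = 0.0028, 22 of 24), but only at -0.13 (adjusted P = 0.41) by the brightest of its 2 probes.

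By list, 2 of 10 serine proteases, 1 of 7 genes of the C1 and contact system and 1 of 13 cysteine proteases and cystatins passed the test as lower in low RFI pigs. None of 9 serpins, 7 WAP, Kunitz, Kazal and other inhibitors or 10 metalloproteases and TIMPs passed in either direction. ELANE and PRTN3, the neutrophil proteases that SLPI or SERPINB1 inhibits, were measured. ELANE was at -1.38 ± 0.55 and -1.54 ± 0.57 in low and high RFI pigs (limma adjusted P = 0.81), and PRTN3 was at -1.35 ± 0.61 and -1.43 ± 0.65 in low and high RFI pigs (limma adjusted P = 0.93). The median line difference of the 56 genes was 0.02, beside 0.03 over all genes. For diet, 0 of 56 genes passed an adjusted P of 0.05 in limma and 4 had an unadjusted P under 0.05 (PRTN3, HTRA4, CTSB and CTSL1), where 1.94% of all genes did. The median diet difference of the 56 genes was 0.00, beside 0.01 over all genes.

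The genes outside the 6 whose values were most like a member were found over 48 pigs after group means were taken out. For SLPI the first was LOC100512690 with r = 0.99, whose single probe shares 54 of 60 bases with SLPI probe A_72_P088391. It had a line difference of 1.19. NMB and TCN1 followed with r = 0.61 and 0.59. For SERPINB1 they were CCPG1, SLC26A6 and RNF170, with r of 0.85, 0.83 and 0.83. For SERPING1 they were CNDP2, CASP5 and IL27, with r of 0.81, 0.81 and 0.77. HTRA1 was most like INCENP (r = 0.68), ZBTB33 (0.61) and SERPINB6 (0.56). SERPINF1 was most like NDEL1 (0.62), KCNQ3 (0.51) and LOC780407 (0.48), and WFDC2 like SLC22A23 (0.48), DEXI (0.46) and GALM (0.46).

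The deposited column of 1 pig, high RFI HF replicate 1, repeats the value 2.71 in 37090 of 37113 entries and was rebuilt from its scanner file. The rebuilt gene values were -0.08 for SLPI and -1.86 for HTRA1. They were 2.93 for WFDC2 and 2.68 for SERPINF1, and 1.30 and 0.52 for SERPINB1 and SERPING1. Each of the 6 lay within the range of the other pigs of the group. With the column as deposited the SD of HTRA1 in that group would be 1.26 in place of 0.30.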

How the data were processed

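The authors deposited, for each pig, scanner files of Agilent Feature Extraction 10.7.3.1 with spot intensity, background and quality flags (intensity columns), and a table of log2 values, for which R 3.0.2 is named in the submitters' notes. On 47 arrays the deposited log2 values were matched, within 1e-05, by taking log2 of each spot's median pixel reading and centring on the median retained spot, with no background subtraction. The faulty column was rebuilt in this way. The authors filtered spots on background, diameter, saturation and uniformity before the log2 step, with thresholds not given in the sources used here. A gene value was the mean of its retained probes with 1 name. Line, diet and their interaction were fitted to all probes and to all genes with limma 3.58.1 in R 4.3.3, with Benjamini-Hochberg adjustment over all of them. Correlations used two-sided permutation tests with 100000 resamples (scipy 1.17.1, numpy 2.4.6). Fits and correlation tests were tested on simulated data. The members and all gene lists were chosen with earlier results of these data known. Named genes are the members, list genes past an adjusted P of 0.05 (at most 4 per list), and the 3 genes most like each member. ELANE, PRTN3, the granzymes that did not pass and genes with low unadjusted P-values were named after their values were seen. Each pig is 1 array, so precision is limited by the number of pigs. Alternatives covered signal, background, filters, slide and replicate blocks, the analysis of variance and the probe that stands for a gene. One result for a single marker gene is not reported here.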

Additional observations from a re-analysis of the deposited data

Results flagged for a closer look

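A SERPING1 probe that the authors did not retain, A_72_P209407, had a signal well above background on 35 of 48 arrays, so it holds a signal outside the values reported above. Computed in the same way, low RFI pigs were at -2.63 ± 0.35 on LF and -2.76 ± 0.33 on HF (SD, n = 12). High RFI pigs were at -2.68 ± 0.31 on LF and -2.76 ± 0.26 on HF. Its line difference was 0.02.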

How the results depend on the processing

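Diet effects of the 24 member probes, interactions of the 19 outside SERPINB1 and diet effects of the listed genes had 0 calls under all 11 alternatives. SLPI kept a line difference of 0.86 to 1.26, SERPINF1 of -1.70 to -1.32 and SERPING1 of -0.22 to -0.05, while SERPINB1 ran from -0.41 in HF pigs to 0.10 in LF pigs. By its brightest probe WFDC2 had a line difference of 0.03. HTRA1 was at -1.72 with background subtracted, whether centred on the median or on the 75th percentile, and at -0.66 with normexp. With only probes well above background on all arrays it had no value. The listed genes called for line were 2 with the faulty column as deposited, and 3 to 5 under the other alternatives. CTSC was lost by its brightest probe and with that column, and F12 with that column and in the analysis of variance (adjusted P = 0.053 in both).

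The count of member correlations past the adjustment was 1, and it was 0 with background subtracted and median centring, with normexp and quantile normalization, with diet or slide means taken out, within scan day 1 and within scan day 2. It was 3 by the brightest probe and 2 with the agreeing probes of WFDC2 and SERPINF1. By the brightest probe, high RFI pigs had r = -0.68 for SLPI and WFDC2 and -0.64 for WFDC2 and SERPINF1. Each had an adjusted P of 0.0098 by permutation. Both have the opposite sign to the gene values. SLPI and SERPINB1 in low RFI pigs had r of 0.40 to 0.69. Permutations were kept within diets, slides or numbers where their means were taken out. The third scan day had too few pigs. The cause of these changes was not tested.

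Replicate numbers do not pair the pigs by any label. Same-numbered pigs had a mean correlation of deviations of 0.176. It was 0.0734 for pigs of the same slide with another number and -0.0245 for pigs of other slides. By number it ran from -0.0929 to 0.517 and was over 0.1 for 8 of 12 numbers, and 22 of 48 pigs correlated best with their own number. Pigs of a number were thus more alike than others, and tests that take all pigs as independent do not allow for this. With the replicate block there were 0 calls for diet on the member probes and for the interaction outside SERPINB1, 5 for line among the listed genes, and 0 member correlations past the adjustment.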
